A study of Mus musculus with 9 samples.

Results

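The retinoblastoma and E2F family was followed here through 10 genes listed by name: the Rb family (Rb1, Rbl1 and Rbl2), the E2F genes E2f1, E2f2, E2f3, E2f4 and E2f6, and the D cyclins Ccnd1 and Ccnd3. They are 10 of 55487 genes in the deposited tables, and all 10 passed the low-value filter that left 16140 genes for testing. RNA was sequenced from gastrocnemius, a mixed calf muscle, of male C57BL/6 mice that the series text gives as 8 weeks old, the age at purchase in the methods, which add weeks of housing before use, with 3 samples in each of 3 groups. Dis was muscle of the hindlimb held still for 7 days in a thermoplastic bandage, Con was muscle of the free hindlimb of immobilized mice, and NC was muscle of naive mice that wore no bandage. No group carried a genetic change or was given a test drug, but the methods name isoflurane anesthesia for fitting and removing the bandage. Con shares its animals with Dis, so Con is not muscle of an untreated mouse. The labels do not say which Con sample came from the mouse of which Dis sample. The sources differ on the muscle and on the leg. The methods name the tibialis anterior for RNA, where the labels and the paper's abstract, results and discussion name the gastrocnemius. Left and right are exchanged between the paper and the series text. The series text also describes Con as immobilized where the sample labels describe it as contralateral, and the sample labels were used.

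Rb proteins, also called pocket proteins, bind E2F transcription factors and hold genes of DNA replication and cell division silent. D cyclins with Cdk4 or Cdk6 phosphorylate the pocket proteins, which frees the E2F factors and lets a cell enter S phase. In skeletal muscle the fibres are postmitotic, and Rb1 is known for keeping differentiated muscle cells out of the cell cycle, while satellite cells, the muscle's stem cells, and cells between the fibres can divide.

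Levels are given in TPM, a transcript level corrected for gene length and scaled to one total in every library. Fold changes are differences of mean log2(TPM + 0.5) with the SE from limma, and adjusted p is the Benjamini-Hochberg value over all 16140 tested genes, with 0.05 as the threshold. Since TPM holds no read totals, depth is unknown here and counting error could not be computed. The labels do not state that the samples of a group are separate animals. The paper speaks of muscles from 3 mice, with or without the bandage, and links no mouse to a sample. The p-values therefore measure the spread between these samples. Muscle fibre markers summed to 102073 to 126416 TPM in the 9 samples, by far the highest of the marker sums, and lymphocyte markers to at most 0.804 TPM. Dis sample 2 stood apart: the 7 macrophage markers summed to 264 TPM there, against 29.1 and 40.0 in Dis samples 1 and 3, 50.4 to 74.4 in Con and 30.01 to 36.7 in NC, and none of the 7 was at 0 in any sample. The median gene was higher in Dis than in Con by 0.20 on the log2 scale and higher than in NC by 0.21, and rescaling by median ratios brought these shifts to 0.01 each.

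Promoter sequences show which family genes carry, near their start, the letters that E2F factors are known to bind. RefSeq promoter windows on GRCm38.p6, 250 bases before to 50 after a start site, were matched by symbol for 7 of the 10 genes. The motif was searched as TTTCCCGC, TTTCGCGC, TTTGCCGC and TTTGGCGC on both strands, and 744 of all 32851 windows (2.26%) held a match. Counted by gene, 485 of the 10751 tested genes with a window (4.51%) held a match. Rbl1, E2f2 and E2f3 each held 1 match in a window, and E2f1, Rbl2, E2f6 and Ccnd3 held none. E2f2 and E2f3 each had another window, at a start farther downstream, that held no match. The E2f1 window, chr2:154569377-154569676, lies inside the gene, downstream of its start at 154569892 in the deposited table. The sequence at that start of E2f1 was therefore not searched. The 3 matches are printed as stretches of 30 bases, 5′ to 3′ on the strand of the gene, with the match in capitals.
Rbl1, chr2:157204535-157204564, minus strand: caagaaggcgatTTTCGCGCgctttgtcgc
E2f2, chr4:136172294-136172323, plus strand: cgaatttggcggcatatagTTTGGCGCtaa
E2f3, chr13:29986064-29986093, minus strand: aatatggtttgaaaagccgGCGGGAAAtct
The E2f3 match is the reverse complement of TTTCCCGC, and the other two read along the gene. Counted from the RefSeq start site as base 1, the first base of the match lay at -18 in Rbl1, 40 in E2f2 and -11 in E2f3. Of these genes only E2f2 passed the test in the comparisons that follow. Rb1, E2f4 and Ccnd1, which also passed, had no window, so whether they hold a match is unknown. Among the members that changed and had a window, E2f2 held a match and Rbl2 and E2f6 did not. For comparison, the upstream sequences of E2f2, which rose, and of E2f6, which fell, are given with no match in them.
E2f2, chr4:136172024-136172273, plus strand: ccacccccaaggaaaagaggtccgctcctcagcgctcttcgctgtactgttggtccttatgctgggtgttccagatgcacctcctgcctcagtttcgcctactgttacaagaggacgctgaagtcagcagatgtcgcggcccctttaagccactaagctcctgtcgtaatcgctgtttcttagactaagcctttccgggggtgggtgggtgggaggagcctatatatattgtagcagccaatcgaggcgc
E2f6, chr12:16810715-16810962, plus strand: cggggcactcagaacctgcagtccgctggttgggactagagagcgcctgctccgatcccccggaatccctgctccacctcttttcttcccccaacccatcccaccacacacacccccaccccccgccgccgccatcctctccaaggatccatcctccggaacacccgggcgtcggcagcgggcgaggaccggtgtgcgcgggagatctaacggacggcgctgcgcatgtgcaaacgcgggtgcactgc
The RefSeq start of E2f2 lies upstream of the gene start in the deposited table. Among tested genes with a window, 17.5% of the 485 with a match were higher in Dis than in Con, against 16.0% of the 10266 with none.

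The immobilized leg differed from both controls in the same 5 members of the family. Rb1, Rbl2, E2f2 and E2f4 were higher in Dis than in Con, and E2f6 and Ccnd1 were lower, while Rbl1, E2f1, E2f3 and Ccnd3 did not pass the test. Against NC the same 4 genes were higher and E2f6 was lower, and Ccnd1 did not pass. In the first comparison 4 of 10 members were higher and 2 lower, where 14.1% and 3.08% of all tested genes were. In the second, 4 members were higher and 1 lower, where 13.6% and 2.99% of all tested genes were. Groups did not overlap with Dis higher for 5 members against Con (30.2% of all tested genes) and 4 against NC (31.3%), and with Dis lower for 2 against Con (6.43%) and 1 against NC (6.71%). Against the 6 controls together 4 members were higher (20.3%) and 1 lower (4.09%), and the same numbers had groups that did not overlap (22.5% and 3.93%). After median-ratio scaling 2 members were higher and 2 lower than in Con (2.67% and 4.67% of all tested genes), and 2 higher and 1 lower than in NC (3.51% and 5.52%). Without Dis sample 2 it was 3 higher and 2 lower than in Con (11.8% and 3.56%), and 4 higher and 1 lower than in NC (10.8% and 2.75%). The comparisons share the Dis samples, so their calls are not independent. The members, and the gene lists used below, were chosen with earlier results of these data known. The paper itself names Rb1 and E2f2 among its changed genes. The shares therefore do not test whether the family changed more often than other genes. The methods of the paper ask for a change of at least 4-fold. Here the ratio of mean TPM of Dis over Con was 2.25 for Rb1 and 2.63 for E2f2, both below that cut-off. Relatives not counted as members, E2f5, E2f8 and Ccnd2, did not pass in Dis with Con or in Dis with NC. The median fold change of the 10 members was 0.33 for Dis with Con and 0.34 for Dis with NC, against the all-gene medians of 0.20 and 0.21. In whole muscle, a change in the number of cells of a type and a change of RNA within the cells cannot be told apart. The 5 satellite cell markers, none at 0 in all samples, summed to 23.9 to 39.8 TPM in Dis and 14.4 to 18.3 TPM in the 6 controls. Of the 4 markers that were tested, Cdh15 rose, by 1.1002 ± 0.19 against Con (adjusted p = 0.0080) and 1.16 ± 0.19 against NC (adjusted p = 0.0061). Pax7, Myf5 and Chrdl2 did not pass, and their signs differed. Against Con they gave 0.30, 0.42 and -0.33, and against NC -0.15, 0.21 and -0.53. The part of satellite cells in the family's levels was not tested.

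**Figure D1:**
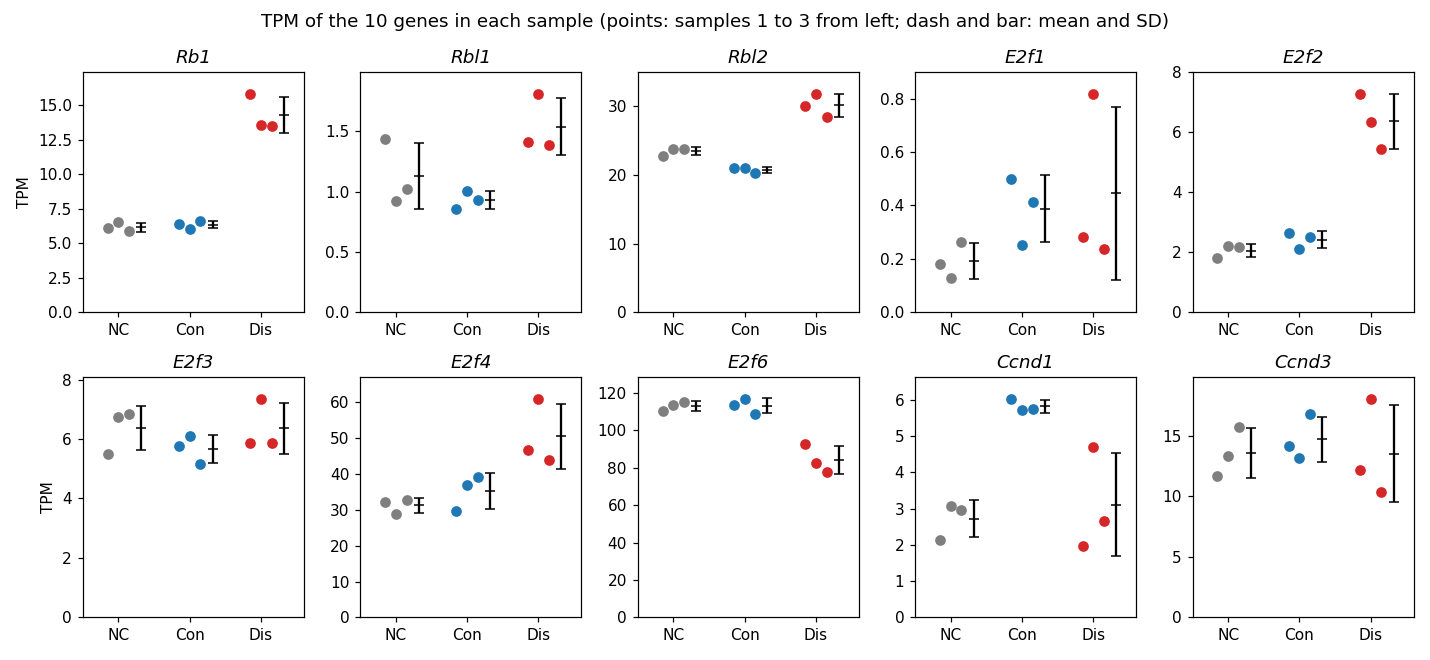
TPM of each of the 10 genes (y axis, linear, from 0) in the NC, Con and Dis samples (x axis), with points for samples 1 to 3 from the left and the mean and SD beside them. All 3 Dis points lie above the 6 control points for Rb1, Rbl2, E2f2 and E2f4 and below them for E2f6, while the 3 Con points of Ccnd1 lie above all others.

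Rb1, which encodes the retinoblastoma protein (ENSMUSG00000022105, chr14:73183673-73325822 on GRCm38, minus strand), more than doubled in the immobilized leg. It stood at 15.8, 13.6 and 13.5 TPM in Dis samples 1 to 3. The Con samples held 6.41, 6.04 and 6.58 TPM, and the NC samples 6.07, 6.52 and 5.85 TPM. The lowest Dis sample was therefore above the highest of the 6 controls, and Con and NC overlapped. The mean was 14.3 ± 1.34 TPM in Dis, 6.34 ± 0.27 in Con and 6.15 ± 0.34 in NC (SD, n = 3 each). The fold change was 1.11 ± 0.11 on the log2 scale against Con (adjusted p = 0.0026) and 1.15 ± 0.11 against NC (adjusted p = 0.0025). Rb1 passed in all 20 alternative settings of both comparisons, with fold changes from 0.88 to 1.16 against Con. Exons of Rb1 overlap those of Rcbtb2 and Lpar6 on the other strand, and 10.4% of its 75-base stretches occur in their transcripts. Rcbtb2 lay between 7.81 and 10.3 TPM and Lpar6 between 0.384 and 1.04 TPM in the 9 samples, and the methods name a strand-specific library kit, the labels a kit of another name, and neither says whether quantification used the strand.

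Rbl2, which encodes the pocket protein p130 that is known for its abundance in resting cells (ENSMUSG00000031666, chr8:91070057-91123844, plus strand), was the most abundant of the Rb family genes. It measured 30.1, 31.9 and 28.5 TPM in Dis, 21.09, 20.996 and 20.23 TPM in Con, and 22.8, 23.8 and 23.8 TPM in NC. The groups did not overlap in any of the pairs, with Dis highest and Con lowest. The fold change was 0.53 ± 0.08 against Con (adjusted p = 0.0061) and 0.35 ± 0.08 against NC (adjusted p = 0.0196). After median-ratio scaling it was 0.30 (adjusted p = 0.0569) against Con and 0.11 (adjusted p = 0.439) against NC, so neither call held. Against NC Rbl2 passed in 14 of 20 alternatives, and the other settings in which it did not pass were quantile normalization, the fit to only the groups compared, and the fits without NC sample 1 (adjusted p = 0.0827), 2 (0.0550) or 3 (0.0614). Con was lower than NC by 0.17 ± 0.08 without passing the test (adjusted p = 0.817). A share of 15.3% of its 75-base stretches occurs in transcripts of Aktip and Gm45464, which overlap it.

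Rbl1, which encodes the pocket protein p107 that is typical of dividing cells (ENSMUSG00000027641, chr2:157145893-157204534, minus strand), was the least abundant of the Rb family genes. Its levels were 1.41, 1.81 and 1.39 TPM in Dis, 0.855, 1.01 and 0.926 TPM in Con, and 1.44, 0.922 and 1.02 TPM in NC. Dis lay above Con in every sample but overlapped with NC. The fold change of 0.51 ± 0.17 against Con had an adjusted p of 0.0685 and an interval from 0.13 to 0.89, and that of 0.33 ± 0.17 against NC an interval from -0.05 to 0.71, which also missed the threshold.

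Within each library, the Rb family shifted its makeup toward Rb1 in the immobilized leg. Rb1 made up 28.7 to 33.4% of the summed Rb family TPM in Dis, 21.5 to 23.7% in Con and 19.0 to 20.9% in NC. Rbl2 made up 63.6 to 67.4% in Dis, 73.0 to 74.9% in Con and 75.2 to 77.6% in NC, and Rbl1 stayed between 2.95 and 4.74% in all 9 samples. Summed, the 3 genes reached 43.3 to 47.3 TPM in Dis and 27.7 to 31.2 TPM in the 6 controls. Shares within a library do not depend on how libraries are scaled to each other.

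**Figure D2:**
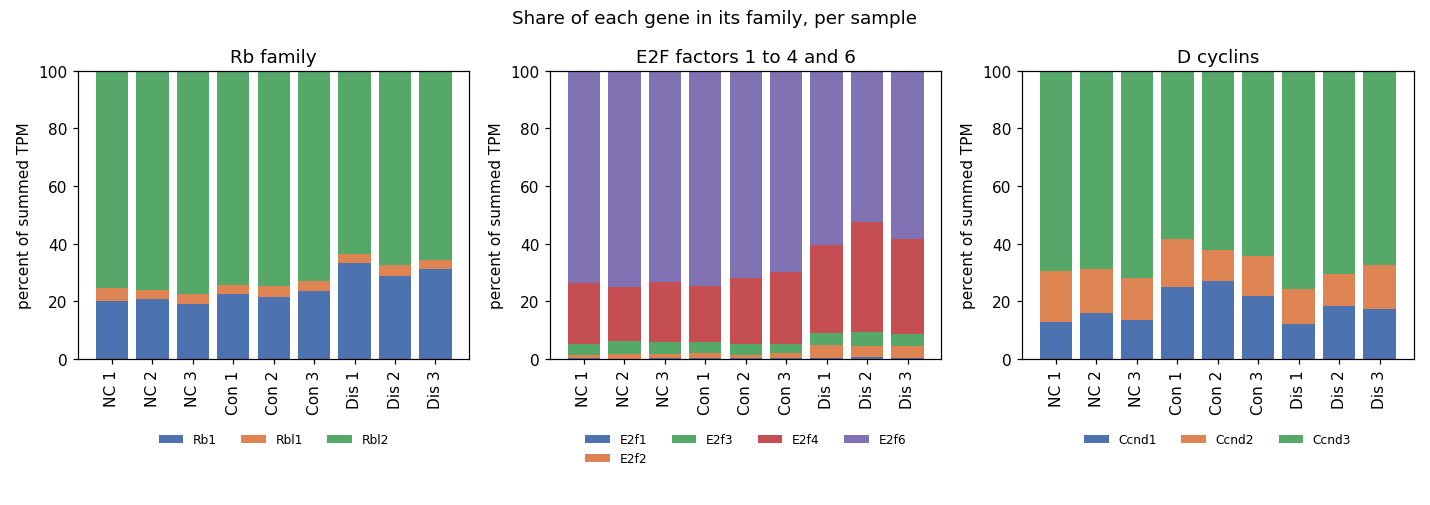
Stacked bars give the percent of the summed TPM of each family (y axis) that each gene holds in each of the 9 samples (x axis), for the Rb family, the 5 E2F genes and the D cyclins with Ccnd2. Rb1 holds 28.7 to 33.4% in Dis and 19.0 to 23.7% in the controls, and E2f6 holds 52.3 to 60.6% in Dis and 69.8 to 75.04% in the controls.

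E2f2 was the activator E2F that passed the test. E2F1, E2F2 and E2F3 are the factors known to switch on genes of S phase when they are free of Rb. E2f2 (ENSMUSG00000018983, chr4:136172394-136196057, plus strand) stood at 7.28, 6.35 and 5.44 TPM in Dis samples 1 to 3. The Con samples held 2.65, 2.11 and 2.50 TPM, and the NC samples 1.79, 2.21 and 2.16 TPM. Each Dis sample was above all controls, and Con and NC overlapped. The ratio of mean TPM was 2.63 for Dis over Con and 3.10 for Dis over NC. On the log2 scale the fold change was 1.23 ± 0.15 against Con (adjusted p = 0.0035) and 1.42 ± 0.15 against NC (adjusted p = 0.0026), and E2f2 passed in all 20 alternatives of both comparisons. Its level in Dis sample 2, the sample with most macrophage marker RNA, lay between those of the other two Dis samples, and without that sample the fold change against Con was 1.23 (adjusted p = 0.0052). No other annotated transcript shares a 75-base stretch with E2f2.

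E2f1 and E2f3, the other activators, did not pass in any comparison. E2f1 (ENSMUSG00000027490, chr2:154559407-154569892, minus strand) was the lowest member, at 0.280, 0.818 and 0.236 TPM in Dis, 0.497, 0.251 and 0.413 TPM in Con, and 0.181, 0.128 and 0.262 TPM in NC. The 3 groups overlapped. Its fold change against Con was 0.05 ± 0.24, with an interval from -0.50 to 0.60 (adjusted p = 0.907), and against NC 0.40 ± 0.24, with an interval from -0.14 to 0.95 (adjusted p = 0.268). E2f3 (ENSMUSG00000016477, chr13:29906575-29986063, minus strand) held 5.86, 7.35 and 5.86 TPM in Dis, 5.75, 6.08 and 5.16 TPM in Con, and 5.51, 6.75 and 6.85 TPM in NC. The 3 groups overlapped, and the fold change against Con was 0.15 ± 0.14, with an interval from -0.16 to 0.46 (adjusted p = 0.480), and against NC it was 0.00 ± 0.14, with an interval from -0.31 to 0.30 (adjusted p = 0.986). Whether either gene differed from E2f2 in its change was not tested. Both genes were highest among the Dis samples in sample 2, where macrophage markers were highest, and whether those cells contribute was not tested. For both genes the sign of the change against Con turned negative with median-ratio or quantile scaling.

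Among the members known as repressors, E2f4 was higher in Dis and E2f6 lower. E2f4, whose protein binds mostly p130 in resting cells (ENSMUSG00000014859, chr8:105297663-105305370, plus strand), measured 46.7, 60.9 and 43.9 TPM in Dis. The Con samples held 29.5, 37.0 and 39.0 TPM, and the NC samples 32.3, 28.7 and 32.6 TPM. Dis lay above all controls, and Dis sample 2 was the highest. The fold change was 0.51 ± 0.15 against Con (adjusted p = 0.0425) and 0.67 ± 0.15 against NC (adjusted p = 0.0168). Against Con it passed in only 4 of 20 alternatives and against NC in 17 of 20. Without Dis sample 2 the fold change against Con was 0.37 (adjusted p = 0.0780), and after median-ratio scaling 0.28 (adjusted p = 0.208).

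E2f6, which represses genes without binding Rb proteins and works with Polycomb group partners (ENSMUSG00000057469, chr12:16810963-16839742, plus strand), was the most abundant member and the only E2F that fell. It stood at 92.5, 82.7 and 77.6 TPM in Dis, 114, 117 and 109 TPM in Con, and 110.3, 114 and 115 TPM in NC. Every Dis sample was below every control, and 94.6% of tested genes had a lower mean level than E2f6 over the 9 samples. The fold change was -0.43 ± 0.08 against both Con (adjusted p = 0.0133) and NC (adjusted p = 0.0126), against a rise of the median gene. With median-ratio scaling the fall was larger, at -0.65 against Con and -0.67 against NC. It passed in 18 of 20 alternatives against Con and 19 of 20 against NC, and the misses had adjusted p from 0.0506 to 0.0566. Without Con sample 1 the adjusted p was 0.0566, and without NC sample 3 it was 0.0506. No annotated transcript of another gene shares a 75-base stretch with E2f6.

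**Figure D3:**
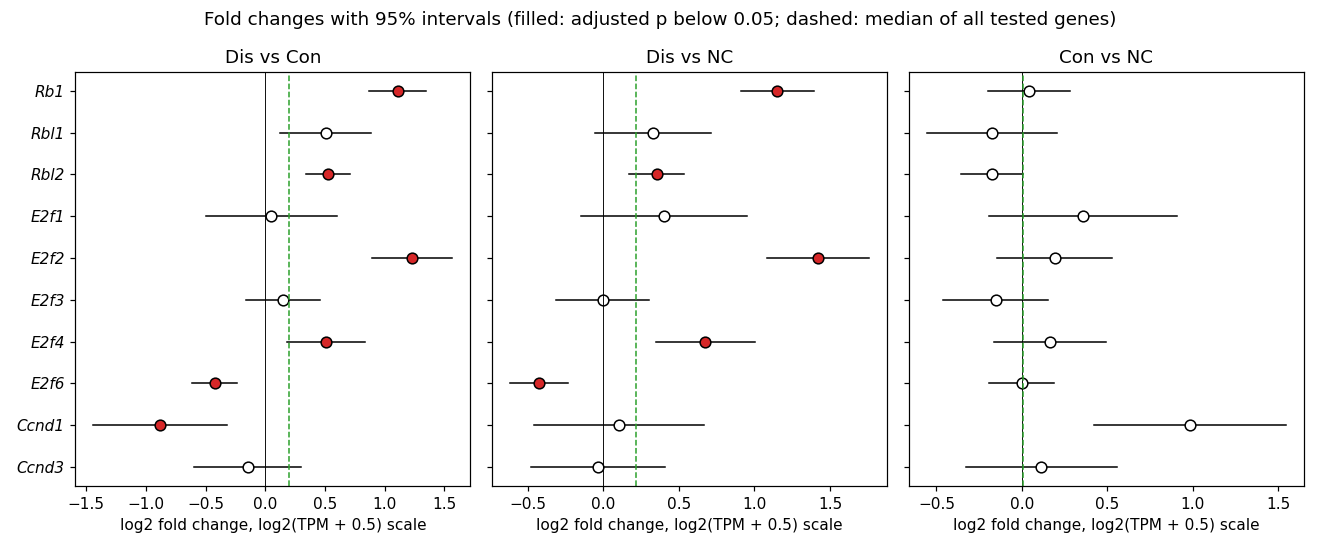
Log2 fold change of each gene (x axis, log2(TPM + 0.5) scale) with its 95% interval for Dis with Con, Dis with NC and Con with NC, filled where the adjusted p was below 0.05, and a dashed line at the median of all tested genes. Rb1 and E2f2 lie farthest to the right in both Dis comparisons, at 1.11 to 1.42, E2f6 lies at -0.43, and Ccnd1 is at -0.88 against Con but at 0.98 between the 2 controls.

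Ratios within each library restate the contrast between E2f6 and Rb1, E2f2 and E2f4 without any scaling between libraries. Rb1 stood at 0.164 to 0.173 of the E2f6 level in Dis and at 0.0507 to 0.0604 in the 6 controls. E2f2 stood at 0.0701 to 0.0787 of E2f6 in Dis and at 0.0162 to 0.0233 in the controls. E2f4 stood at 0.505 to 0.736 of E2f6 in Dis and at 0.253 to 0.359 in the controls. In each of these ratios the 3 Dis samples lay above all controls, as they must. Every Dis sample was above every control in Rb1, E2f2 and E2f4 and below every control in E2f6. The separation of the ratios therefore adds nothing to that of the levels. The sum of the 5 E2F genes was 133 to 158 TPM in Dis and 150.1 to 162 TPM in the controls, so the ranges overlapped while the makeup differed.

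Ccnd1 was highest in the free leg of the immobilized mice. Ccnd1 encodes cyclin D1, which couples growth signals to Cdk4 and Cdk6 (ENSMUSG00000070348, chr7:144929931-144939925, minus strand). The Con samples held 6.02, 5.71 and 5.73 TPM. The Dis samples held 1.97, 4.70 and 2.65 TPM, and the NC samples 2.14, 3.07 and 2.96 TPM. All 3 Con samples were above every other sample, and Dis and NC overlapped. The fold change of Dis with Con was -0.88 ± 0.25 (adjusted p = 0.0410). That of Dis with NC was 0.10 ± 0.25, with an interval from -0.46 to 0.66 (adjusted p = 0.797). The difference of Con and NC was 0.98 ± 0.25 and did not pass (adjusted p = 0.425), and of the 20 alternatives only array weights brought it past the threshold (adjusted p = 0.0474).

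Dis sample 2 held the most Ccnd1 of its group and also the most macrophage marker RNA. Without it, the fold change of Dis with Con was -1.18 (adjusted p = 0.0061), and that of Dis with the 6 controls together went from -0.39 (adjusted p = 0.213) to -0.69 (adjusted p = 0.0179). Con, where Ccnd1 was highest, held 50.4 to 74.4 TPM of summed macrophage markers against 30.01 to 36.7 in NC. The part of these cells in the Ccnd1 levels was not tested. The call against Con was kept in 10 of 20 alternatives, with adjusted p up to 0.117, which was the value without Con sample 1. Transcripts of LTO1, which overlaps Ccnd1 on the other strand and lay between 6.17 and 11.7 TPM, hold 20.6% of the 75-base stretches of Ccnd1.

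Ccnd3, which encodes the D cyclin known from differentiated muscle (ENSMUSG00000034165, chr17:47505051-47599691, plus strand), did not pass in any comparison. It measured 12.2, 18.0 and 10.3 TPM in Dis, 14.2, 13.2 and 16.8 TPM in Con, and 11.7, 13.3 and 15.7 TPM in NC. The groups overlapped, and the fold change against Con was -0.15 ± 0.20, with an interval from -0.59 to 0.30 (adjusted p = 0.630). Ccnd3 was the most abundant D cyclin, with 67.5 to 75.6% of the summed Ccnd1, Ccnd2 and Ccnd3 TPM in Dis, 58.3 to 64.3% in Con and 68.9 to 71.96% in NC. Short parts of Ccnd3, 3.53% of its 75-base stretches, occur in transcripts of other genes, among them Bysl and the pseudogene Ccnd3-ps. Ccnd1 held 21.98 to 26.98% in Con, 12.2 to 18.4% in Dis and 12.7 to 15.9% in NC.

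The free leg and the naive muscle differed in no member by limma after adjustment. Before adjustment 1 of 10 members, Ccnd1, had p below 0.05, where 6.25% of all tested genes did, and after adjustment 1 of 16140 genes (0.0062%) passed, which is no member. Groups did not overlap for Ccnd1, with Con higher (9.54% of all tested genes), and for Rbl2, with Con lower (8.11%). Rb1 differed between them by 0.04 ± 0.11, with an interval from -0.20 to 0.28, and E2f6 by 0.00 ± 0.08, with an interval from -0.19 to 0.19. For E2f2 the difference was 0.19 ± 0.15, with an interval from -0.15 to 0.53.

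The order of levels within the family differed between the groups. In Con the means ran from E2f6 through E2f4 (35.2 TPM), Rbl2 (20.8), Ccnd3 (14.7), Rb1 (6.34), Ccnd1 (5.82), E2f3 (5.66), E2f2 (2.42) and Rbl1 (0.929) to E2f1 (0.387). In Dis, Rb1 at 14.3 TPM overlapped with Ccnd3 at 13.5 ± 4.02 TPM, and E2f2 at 6.36 ± 0.92 TPM overlapped with E2f3 at 6.36 ± 0.86 TPM. In NC the order was that of Con but for E2f3 (6.37 TPM), which stood above Rb1 (6.15) and Ccnd1 (2.72) with ranges that overlapped for E2f3 and Rb1. In both controls Rb1 lay below Ccnd3, and E2f2 below E2f3, in every sample.

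Genes whose pattern over the 9 samples was most like that of Rb1 and E2f2 were sought by the root mean square difference of centred log2(TPM + 0.5), among 12899 genes of at least 1 TPM on average. For Rb1 they were Tpr (0.11), Akap11 (0.12), Slc12a2 (0.13), Cfap36 (0.13) and E2f2 (0.14). For E2f2 they were Rb1 (0.14), Tpr (0.18), Hdac4 (0.18), Kcnq5 (0.18) and Cfap36 (0.18). Rb1 was thus the nearest gene to E2f2. The search used the same values in which both genes were higher in Dis, so it in part restates that rise. Whether the 2 genes share control was not tested. The ratio of Rb1 to E2f2 TPM was 2.14 to 2.47 in Dis, 2.42 to 2.87 in Con and 2.71 to 3.39 in NC.

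The rest of the pathway was read through 11 lists of 95 genes, of which 84 were tested. In Dis with Con 17 were higher and none lower (20.2%, against 17.2% of all tested genes in either direction), and in Dis with NC 13 were higher and none lower (15.5%, against 16.6%). With limma no list gene passed in Con with NC, and 6 had p below 0.05 before adjustment, where 6.25% of all tested genes did. After median-ratio scaling 4 of the 17 remained in Dis with Con, Bbc3, Ddb1, Ehmt2 and Suv39h1 (4.76% of the tested list genes, where 2.67% of all tested genes were higher). In Dis with NC 2 remained, Ddb1 and Ehmt2 (2.38%, where 3.51% of all tested genes were higher). Without Dis sample 2, 14 list genes were higher and 3 lower in Dis with Con, where 11.8% and 3.56% of all tested genes were. In Dis with NC 10 were then higher and 1 lower, where 10.8% and 2.75% of all tested genes were. The DP partners of E2F and the other D-type cyclin and kinases did not pass in Dis with Con. The DP partners gave 0.23 ± 0.14 for Tfdp1 (adjusted p = 0.289) and 0.37 ± 0.26 for Tfdp2 (adjusted p = 0.346), and the repressors E2f5 (0.06 ± 0.15) and E2f8 (-0.23 ± 0.25) did not pass either. Ccnd2 gave -0.40 ± 0.20 (adjusted p = 0.192), and the D-type kinases 0.13 ± 0.14 for Cdk4 (adjusted p = 0.547) and -0.13 ± 0.16 for Cdk6 (adjusted p = 0.596).

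Of 6 tested inhibitors of the kinases 1 passed in Dis with Con, a share near the 14.1% of all tested genes that rose, and none in Dis with NC (0 with p below 0.05 before adjustment in limma). Cdkn1b, which encodes p27, a brake on cyclin-dependent kinases, rose in Dis with Con, and the 5 other tested inhibitors did not pass. It went from 26.2, 28.01 and 29.98 TPM in Con to 35.2, 39.7 and 37.1 TPM in Dis, and NC lay between at 34.0, 33.6 and 31.2 TPM. The fold change of Cdkn1b was 0.41 ± 0.09 (adjusted p = 0.0184) against Con, and it did not pass against NC. Cdkn1c, named after its values were seen, gave 0.44 ± 0.23 against Con, with an interval from -0.07 to 0.95 (adjusted p = 0.210), and stood at 62.9 TPM in Dis sample 1. Cdkn1a, which encodes p21, gave 0.22 ± 0.21 against Con (adjusted p = 0.482), with its highest level of 31.97 TPM in Dis sample 2. Of 8 tested genes for cyclins E and A, Cdk2 and its activators, none passed with limma in Dis with Con (0 with p below 0.05 before adjustment).

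Genes of chromatin and repressor complexes that work with Rb and E2F rose in part. Of 9 Rb chromatin partners 5 rose in Dis with Con, where 14.1% of all tested genes did, with a list median of 0.41, and 3 rose in Dis with NC, where 13.6% did, with a median of 0.31. Those with the smallest adjusted p against Con are Suv39h1 (0.71 ± 0.14), Hdac2 (0.34 ± 0.08), Smarca4 (0.52 ± 0.12) and Rbbp7 (0.32 ± 0.09). Suv39h1 and Hdac2 encode enzymes that methylate and deacetylate histones, and Smarca4 a remodelling motor. Against NC Smarca4 and Rbbp7 passed as well, while Suv39h1 (0.31 ± 0.14, adjusted p = 0.151) and Hdac2 (0.22 ± 0.08, adjusted p = 0.0754) did not, and for both of these every Con sample lay below every NC sample. Of 6 tested genes of the MuvB core and the DREAM complex, which brings p130 and E2f4 to cell cycle genes, Lin54 (0.62 ± 0.14) and Lin52 (0.36 ± 0.10) rose against Con, 2 of 6 where 14.1% of all tested genes did. Against NC Lin54 passed and Lin52 did not (0.14 ± 0.10, adjusted p = 0.358), and Con lay below NC in Lin52. Of 12 genes of the E2F6 complex 3 rose in Dis with Con, where 14.1% of all tested genes did, while E2f6 itself fell. They are Ehmt2 (0.56 ± 0.09), Ring1 (0.49 ± 0.11) and Mga (0.40 ± 0.11). Each exceeded the median shift of 0.20, and adjusted p ranged from 0.0066 for Ehmt2 to 0.0407 for Mga. Against NC 4 of 12 rose, where 13.6% of all tested genes did. They are the same 3 and L3mbtl2 (0.48 ± 0.13, adjusted p = 0.0327). After median-ratio scaling only Ehmt2 of this list passed in either comparison. Of the Rb chromatin partners only Suv39h1 then passed against Con, 1 of 9 where 2.67% of all tested genes were higher, and 0 passed against NC. Of the MuvB and DREAM genes 0 then passed in either comparison.

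The largest list median, 0.56, belonged to cyclin D turnover. Ambra1, Ddb1, Cul4a and Cul4b, which encode the parts of a ubiquitin ligase known to remove D cyclins, all rose in Dis with Con, 4 of 6 where 14.1% of all tested genes did, and Fbxo31 and Gsk3b did not pass. Against NC 3 of 6 rose, where 13.6% of all tested genes did, and Ambra1 did not pass (adjusted p = 0.0636). After median-ratio scaling only Ddb1 of this list passed, 1 of 6 in each comparison. The shares of all tested genes that were then higher were 2.67% against Con and 3.51% against NC. Ddb1 went from 74.98, 76.5 and 71.4 TPM in Con and 68.0, 78.8 and 71.5 TPM in NC to 101, 122 and 110.1 TPM in Dis. Dis was above both other groups in every sample, and the fold change of Ddb1 was 0.57 ± 0.09 against Con (adjusted p = 0.0074). Cul4a rose by 0.43 ± 0.09, Cul4b by 0.58 ± 0.14 and Ambra1 by 0.54 ± 0.15.

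Listed target genes of E2F were read in DNA replication, mitosis and cell death. Of 16 tested replication genes 1 rose in Dis with Con, where 14.1% of all tested genes did, with a list median of 0.09 beside the all-gene median of 0.20. Against NC 1 of 16 rose, where 13.6% of all tested genes did, and the list median was 0.24 beside 0.21. That gene was Chaf1a, a histone chaperone of replication forks, at 1.86, 2.19 and 2.55 TPM in Dis and 1.03, 1.29 and 1.28 TPM in Con. Its fold change was 0.66 ± 0.15 (adjusted p = 0.0208). None of 9 tested mitotic genes passed in Dis with Con by limma (1 with p below 0.05 before adjustment), and their median was -0.18, with 8 of 9 below 0. Against NC none of the 9 passed (2 with p below 0.05 before adjustment), and their median was 0.50, with 8 of 9 above 0, so the sign of the list depends on the control. Without Dis sample 2, Aurka (-1.005, adjusted p = 0.0117), Ccnb2 (-0.87, adjusted p = 0.0438) and the replication gene Mcm6 (-0.73, adjusted p = 0.0493) were lower than in Con, 3 genes named after their values were seen. Against NC without that sample Aurka was lower too (-1.05, adjusted p = 0.0100), and the other two did not pass. Mki67, a marker of dividing cells also picked after its values were seen, measured 0.0438, 1.12 and 0.234 TPM in Dis, 0.472, 0.346 and 0.483 TPM in Con, and 0.0521, 0.0511 and 0.0225 TPM in NC. The marker was low in every sample, and Dis sample 2, which had most macrophage marker RNA, was the highest. In Con with NC 6 of 9 mitotic genes had groups that did not overlap with Con higher, where 9.54% of all tested genes did. None of the 9 passed after adjustment, and 2 had p below 0.05 before it, where 6.25% of all tested genes did. Macrophage markers were also higher in Con than in NC, and their part in this was not tested.

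Of 5 tested death targets of E2F1, 1 rose in Dis with Con, where 14.1% of all tested genes did. The same gene rose in Dis with NC, where 13.6% did. It was Bbc3, which encodes the cell death protein PUMA. It stood at 3.08, 3.22 and 3.16 TPM in Dis, 1.08, 1.53 and 1.46 TPM in Con, and 1.75, 1.56 and 1.84 TPM in NC. The lowest Dis sample was above every control, and the fold change of Bbc3 was 0.98 ± 0.14 against Con (adjusted p = 0.0055) and 0.72 ± 0.14 against NC (adjusted p = 0.0132). After median-ratio scaling Bbc3 passed against Con and not against NC. Of the list's other genes, none passed.

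**Figure D4:**
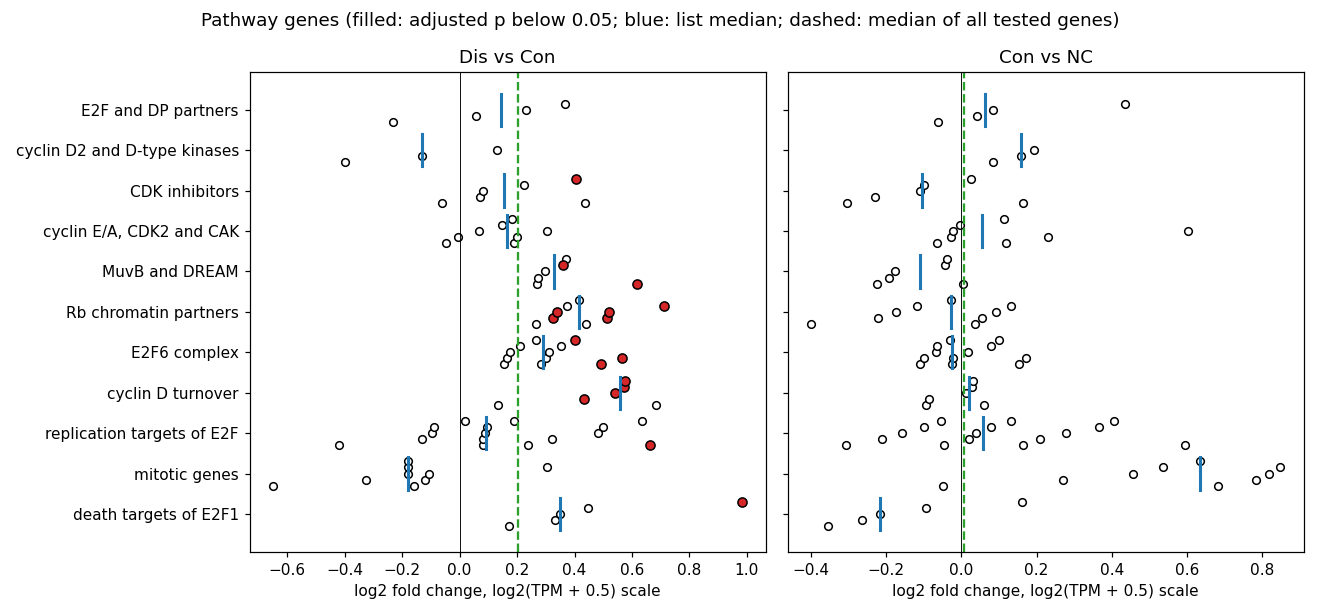
Each point is the log2 fold change (x axis, log2(TPM + 0.5) scale) of a tested pathway gene in its list (y axis), for Dis with Con and Con with NC, filled where the adjusted p was below 0.05, with list medians in blue and the all-gene median dashed. The 17 filled points all lie to the right of 0 in Dis with Con, cyclin D turnover has a median of 0.56 and mitotic genes one of -0.18, and no point is filled in Con with NC.

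Of the 4 members higher and 2 lower in Dis with Con, Rb1 and E2f2 passed in all 20 alternatives, Rbl2 in 19, E2f6 in 18, Ccnd1 in 10 and E2f4 in 4.

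**Figure D5:**
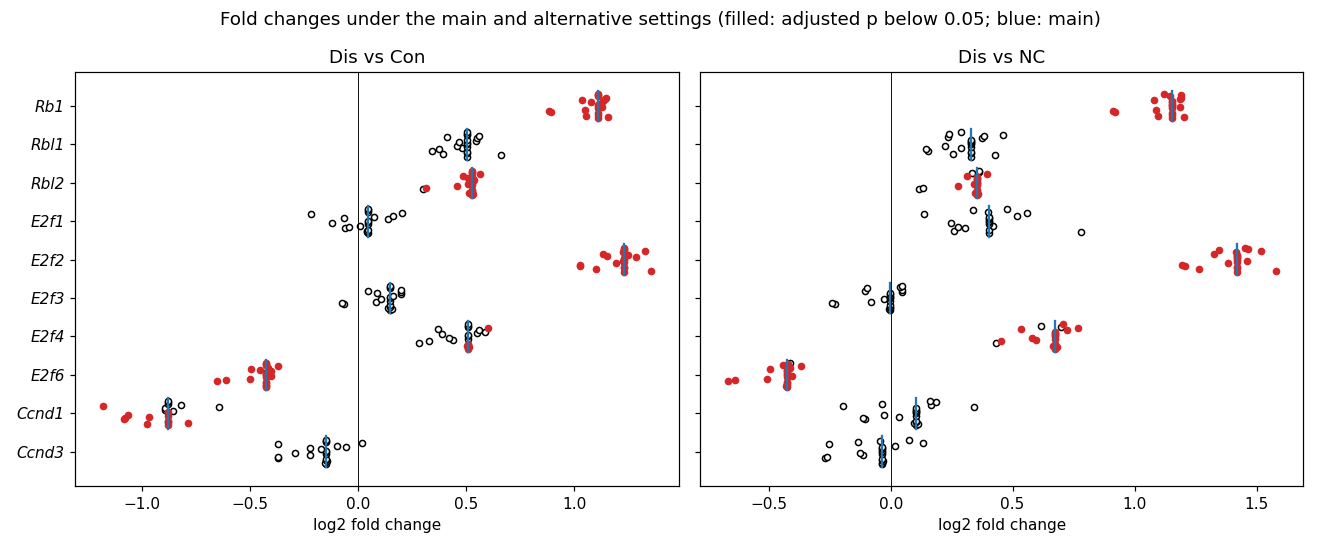
Log2 fold change of each gene (x axis) in Dis with Con and Dis with NC under the setting used in the text (blue line) and its alternatives (points), filled where the adjusted p was below 0.05. Points of Rb1 and E2f2 are filled throughout, those of E2f4 mostly open against Con, and E2f6 stays below 0 from -0.67 to -0.37.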

How the data were processed

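RNA of 9 samples (3 Con, 3 Dis, 3 NC) was sequenced by the authors. They ran bcl2fastq 2.20 and HISAT2 by the labels, and their methods add Trimmomatic for trimming and StringTie for quantification. The authors deposited gene values as TPM, 1 table per sample. The genome build is not given in the sources used here. Of the 55487 identifiers 54778 have the same coordinates and strand in GENCODE mouse release 21 (GRCm38), which was used for overlaps. The value 0.0001 TPM was read as 0. Libraries are scaled to the same total, so depth and counting error are unknown.

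A gene was tested if 3 or more samples reached 0.3 TPM. In R 4.3.3, limma 3.58.1 fitted one model over the 3 groups to log2(TPM + 0.5). Variances were moderated along the mean trend, and p-values were adjusted by Benjamini and Hochberg over all tested genes. The fit was tested on simulated data. Tables were made with pandas 2.3.3 in Python 3.11.15, and intervals are 95%. Shared stretches were 75-base runs found in GENCODE transcripts of other genes.

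All 10 members are reported, with Ccnd2, Cdk4, Cdk6, Cdkn1a, Tfdp1 and Tfdp2, up to 4 genes of each list that passed in Dis with Con by smallest adjusted p, and the 5 genes most like Rb1 and E2f2. Members and lists were chosen with earlier results of these data known. Alternatives were pseudocounts of 0.1 and 1, no filter, a filter at 1 TPM, median-ratio and quantile scaling, rescaling without mitochondrial genes, no trend, array weights, only the groups compared, a replicate block, and leaving out each sample.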

Additional observations from a re-analysis of the deposited data

How the results depend on the processing

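Against the 4 members higher and 2 lower in Dis with Con, median-ratio scaling gave 2 higher. No filter, quantile scaling, rescaling without mitochondrial genes, no trend, array weights, only the groups compared and a replicate block each gave 3 higher, without E2f4. The fit with no filter gave 1 lower and the fit to only the groups compared 0 lower, and leaving out samples gave 3 to 4 higher and 0 to 2 lower. In Dis with NC median-ratio scaling gave 2 higher, quantile scaling and only the groups compared 3, and leaving out samples 2 to 4 higher and 0 to 1 lower. In Con with NC array weights gave 1 higher. In Dis with all controls median-ratio scaling gave 2 higher, quantile normalization 2 lower, and leaving out samples 1 to 2 lower. The members whose calls changed are Rbl2, E2f4, E2f6, Ccnd1 and Rbl1, which passed in Dis with all controls with no trend (adjusted p = 0.0437). Signs turned only for fold changes that had not passed. With median-ratio and quantile scaling E2f1 was -0.059 and -0.041 in Dis with Con, E2f3 was -0.063 and -0.076 in Dis with Con and -0.15 and -0.16 in Dis with all controls, Ccnd1 was -0.11 and -0.11 in Dis with NC, and E2f6 was -0.014 and -0.028 in Con with NC. Array weights gave -0.12 for E2f1 in Dis with Con, -0.027 for Ccnd1 in Dis with NC and -0.0011 for E2f6 in Con with NC, which rescaling without mitochondrial genes put at -0.0084. Leaving out samples, E2f1 ran from -0.22 to 0.20 in Dis with Con and from -0.040 to 0.381 in Dis with all controls. Over the same fits E2f3 ran from -0.11 to 0.047 in Dis with NC and from -0.029 to 0.123 in Dis with all controls, and Ccnd1 from -0.20 to 0.34 in Dis with NC. Ccnd3 ran from -0.37 to 0.019 in Dis with Con, from -0.25 to 0.13 in Dis with NC and from -0.312 to 0.076 in Dis with all controls, and E2f6 from -0.023 to 0.028 in Con with NC. The cause of these shifts was not tested beyond the samples and genes each setting leaves out. Con and Dis samples of the same number had correlations of deviations of -0.011, -0.019 and 0.022 over tested genes. Con and Dis samples of different number ran from -0.086 to 0.089. Deviations from means of 3 samples cannot settle whether equal numbers mark the same mouse. A replicate block gave 3 members higher and 2 lower in Dis with Con.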
